A study of Mus musculus with 29 samples.

Results

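Proliferins are secreted hormones of the prolactin and growth hormone family that the mouse encodes in the Prl2c genes. Described here are the 3 members Prl2c2, Prl2c3 and Prl2c5, found by symbol among the 56953 features of a gene-level count table from 29 libraries of cultured stromal vascular fraction (SVF) cells, the mixed non-adipocyte cells released from white adipose tissue by digestion. The 3 genes were chosen because their measured levels in these same libraries differed between groups. Their levels by depot, sex and well are therefore given as a description, with no test.

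All cells came from adult C57BL6/J mice and were grown as crude SVF for 4 days in PM1 medium with 1 nM basic fibroblast growth factor (FGF), so no group lacked the growth factor. The groups were inguinal white adipose tissue (iWAT) of males (n = 10) and females (n = 9) and perigonadal white adipose tissue (pgWAT) of males (n = 4) and females (n = 6). These sizes follow the sample labels. The study's methods give other sizes for iWAT males and for both pgWAT groups. RNA was made into Smart-seq3 libraries, a full-length protocol, of 315322 to 1102243 counts each. According to the study's methods the wells were technical replicates of a few independent experiments, and the labels do not say which well belonged to which experiment, so every p-value below measures spread between wells. Levels are given as CPM, counts scaled to a common library total after TMM scaling for composition, and errors are SD unless SE is named. Values for single libraries rest on counts, and a count of 0 allows up to 3 counts, here 2.58 to 9.76 CPM (counting error only).

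Proliferin was first known from growth-stimulated mouse fibroblast lines, where serum and FGF induce its transcript. In the animal its main source is the trophoblast giant cell of the placenta. The protein carries mannose 6-phosphate, binds the receptor for that sugar and for insulin-like growth factor 2 (Igf2r), and stimulates endothelial cell migration. AP-1 and GATA factors are among the regulators studied at its promoter.

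The members lie side by side on chromosome 13 in the order Prl2c3, Prl2c2, Prl2c5 and are near-identical, which bears on every count below. In the GENCODE vM21 annotation of GRCm38, Prl2c3 (ENSMUSG00000056457) spans chr13:12790816-12800079 and Prl2c2 (ENSMUSG00000079092) chr13:12996125-13005383, both on the minus strand. Prl2c5 (ENSMUSG00000055360) spans chr13:13182715-13191923 on the plus strand. Each has 5 exons in its first listed transcript. The coding sequences of Prl2c2 and Prl2c3, both of 675 bases, were identical except at 3 positions, counted from 1 at the start codon with the Prl2c3 base first, C14T, A200C and G319T. Prl2c5, with 669 coding bases, had 20 mismatches and 6 gap bases against Prl2c2. A stretch of exon 4, coding positions 316 to 380, is shown because it holds 1 of the 3 positions that separate Prl2c2 from Prl2c3 and 4 that set Prl2c5 apart. Capitals mark the 5 positions at which the 3 genes are not all the same. The stretches are chr13:12997403-12997467 (minus strand) for Prl2c2, chr13:12792110-12792174 (minus strand) for Prl2c3 and chr13:13190586-13190650 (plus strand) for Prl2c5, all in GRCm38:
Prl2c2: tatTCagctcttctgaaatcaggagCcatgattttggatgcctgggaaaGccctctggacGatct
Prl2c3: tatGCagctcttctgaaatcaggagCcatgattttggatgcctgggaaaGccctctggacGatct
Prl2c5: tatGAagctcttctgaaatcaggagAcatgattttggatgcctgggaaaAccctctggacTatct
Of the distinct 31-base words in all annotated transcripts of a gene, 87.9% of those of Prl2c2 also occurred in another member, against 67.0% for Prl2c3 and 33.9% for Prl2c5. In the deposited estimated counts only 4 of 79 member values above 0 were whole within 0.01, compared with 88.4% of all values above 0 in the table, yet the sum of the 3 members was whole within that tolerance in 27 of the 28 libraries that held any member count. The exception was iWAT female 2, with a deposited sum of 1002.87. Between 390 and 424 of the words of each member also occurred in a gene outside the members (Gm7040, Prl2c1 or Prl7d1), so the sum too can depend on how reads were divided, though less than the split between Prl2c2 and Prl2c3, which is uncertain.

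The 250 bases before the start of Prl2c3 and Prl2c5 are shown because the genes rose and fell over the same libraries while Prl2c5 stayed far lower (RefSeq, GRCm38.p6). They are chr13:12800080-12800329 on the minus strand for Prl2c3 and chr13:13182466-13182715 on the plus strand for Prl2c5. Prl2c2 is named only. Capitals mark matches, on either strand, to the AP-1 type motif TGANTCA, the GATA type motif AGATAA and the TATA type motif TATATAA, which did not overlap each other:
Prl2c3: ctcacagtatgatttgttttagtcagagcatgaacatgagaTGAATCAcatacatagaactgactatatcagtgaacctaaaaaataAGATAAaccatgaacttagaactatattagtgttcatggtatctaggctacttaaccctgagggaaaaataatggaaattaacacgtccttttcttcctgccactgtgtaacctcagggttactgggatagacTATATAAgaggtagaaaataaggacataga
Prl2c5: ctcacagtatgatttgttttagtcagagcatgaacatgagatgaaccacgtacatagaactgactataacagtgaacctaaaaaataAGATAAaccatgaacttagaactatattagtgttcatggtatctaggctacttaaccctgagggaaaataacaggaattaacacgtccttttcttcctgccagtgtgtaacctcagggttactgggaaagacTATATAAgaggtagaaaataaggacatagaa
These windows aligned with 241 identical bases, 8 mismatches and 2 gap bases. Both held the GATA type match 163 to 158 bases before the start and a TATA type match, 30 to 24 bases before the start in Prl2c3 and 31 to 25 in Prl2c5. The AP-1 type match, 209 to 203 bases before the start, was found in Prl2c3 and not in Prl2c5. Of 32851 RefSeq promoter windows of this length, 6.75% held the AP-1 type motif, 9.99% the GATA type motif and 3.04% the TATA type motif. A match is a run of letters and not a shown binding site.

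Before the levels, the sex labels were compared with Xist, the transcript of the inactive X chromosome, and with Y-linked transcripts. All 19 iWAT libraries matched their labels. The libraries labelled pgWAT male 2 and 4 held 24 and 60 Xist counts with 1 and 0 Y-linked counts, and those labelled pgWAT female 2 and 3 held 0 Xist counts with 23 and 26 Y-linked counts, so these 4 went against their labels. The library labelled pgWAT female 1 held both, 7 Xist and 10 Y-linked counts. The depot ratios of the members and the counts of calls per gene list are given below with and without the 4 libraries.

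Proliferin transcripts were abundant in iWAT cultures and scarce in most pgWAT cultures. The summed level of the 3 members was 1166 ± 553 CPM in iWAT (n = 19) and 64.6 ± 101 CPM in pgWAT (n = 10), a ratio of means of 18.1. In iWAT males the sum ranged from 980 to 2021 CPM with a median of 1326 (mean 1385 ± 276, n = 10). In iWAT females it ranged from 226 to 2182 CPM with a median of 573 (923 ± 689, n = 9). In the 4 pgWAT male libraries it was 208, 0, 294 and 6.43 CPM for replicates 1 to 4, and in pgWAT females it ranged from 12.5 to 40.1 CPM with a median of 20.1 (22.8 ± 11.1, n = 6). The depots overlapped at 1 place, where pgWAT male 3 at 294 CPM lay above iWAT female 6 at 226 CPM. Of the group means, iWAT male and iWAT female differed by less than the SD of the females, and pgWAT male and pgWAT female by less than the SD of the males. In bulk cultures fewer cells of a type and less transcript per cell cannot be told apart.

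Of all genes tested, 3371 of 8853 genes, 38.1%, were called in the depot contrast (edgeR quasi-likelihood test, FDR below 0.05), 1783 higher and 1588 lower in pgWAT. All 3 members passed the filter on low counts that precedes that test, and since they were selected on this contrast nothing is read from their place among the calls. The libraries labelled pgWAT male 1 and 3, which had the 2 highest sums in pgWAT, set the pgWAT mean. Both, like pgWAT females 4 to 6, matched their labels. Without pgWAT male 3 the ratio of iWAT to pgWAT rose from 18.1 to 29.9, and without both it was 65.2, near the ratio of medians of 63.9. Without the 4 libraries that went against their sex label it was 11.6, and 9.88 without pgWAT female 1 as well. In every one of these settings iWAT was higher.

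**Figure D1:**
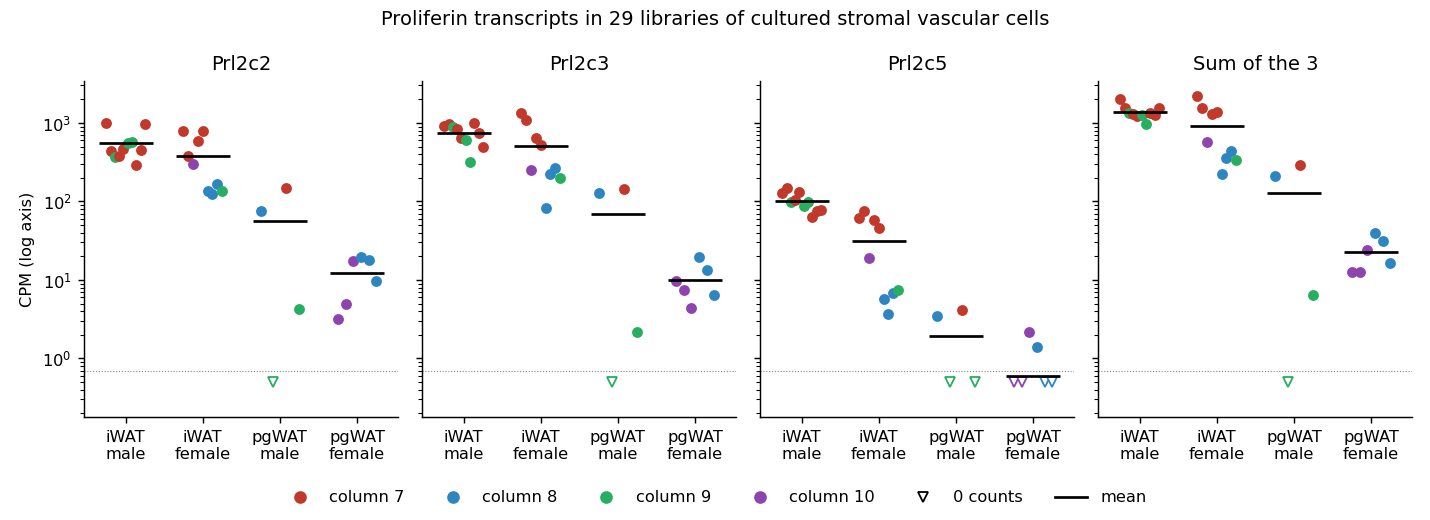
CPM of Prl2c2, Prl2c3, Prl2c5 and their sum (log axis) in each of the 29 libraries by group, coloured by well column, with the group mean as a bar and libraries with 0 counts as open triangles below the dotted line. The iWAT libraries sit at 226 CPM or more for the sum, and 8 of the 10 pgWAT libraries at 40.1 CPM or less.

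Prl2c3 had the highest mean of the 3 in iWAT. It ranged from 316 to 988 CPM in iWAT males (median 787), from 82.8 to 1325 CPM in iWAT females (median 268) and from 4.34 to 19.4 CPM in pgWAT females (median 8.55). In pgWAT males 1 to 4 it stood at 128, 0, 143 and 2.14 CPM. The depot means were 629 ± 348 CPM in iWAT and 33.4 ± 54.3 CPM in pgWAT, a ratio of 18.8. It was 29.6 without pgWAT male 3, 11.8 without the 4 libraries against their sex label and 10.1 without pgWAT female 1 as well.

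Prl2c2 followed the same groups. Its level ranged from 289 to 990 CPM in iWAT males (median 458), from 123 to 797 CPM in iWAT females (median 304) and from 3.20 to 19.4 CPM in pgWAT females (median 13.6). In pgWAT males 1 to 4 it was 76.4, 0, 147 and 4.28 CPM. The depot means were 469 ± 269 and 30.0 ± 46.7 CPM, a ratio of 15.6. It was 27.6 without pgWAT male 3, 10.3 without the 4 libraries against their sex label and 8.67 without pgWAT female 1 as well.

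Prl2c5 was the lowest of the 3 and was close to the detection limit in pgWAT. It ranged from 63.5 to 147 CPM in iWAT males (median 98.5) and from 3.72 to 75.6 CPM in iWAT females (median 18.97). All 10 pgWAT libraries together held 7 Prl2c5 counts against 826 in the 19 iWAT libraries. Relative to depth this is a ratio of 53.2 with a 95% counting interval of 25.7 to 133, and 6 of the 10 pgWAT libraries held none. The ratio of mean CPM was 60.9, and it was 45.3 without the 4 libraries against their sex label and 37.8 without pgWAT female 1 as well.

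Per kilobase of transcript, the mean level in iWAT was 734 CPM for Prl2c3 and 557 CPM for Prl2c2, which ranked 132nd and 171st among 8815 genes that passed the filter, and 70.2 CPM for Prl2c5, which ranked 1092nd. In pgWAT the same ranks were 1812 for Prl2c3, 1942 for Prl2c2 and 8715 for Prl2c5, means that 2 libraries set. In pgWAT male 1 and 3 the ranks were 545, 654 and 7112, and in the other 8 libraries 5002, 4412 and 8782. The ranks of Prl2c3 and Prl2c2 rest on a split of reads that is uncertain. Prl2c5, with 7 counts in all pgWAT libraries together, passed the filter through its 826 iWAT counts. Its pgWAT ranks therefore follow in part from which genes the filter kept.

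The wells showed structure within groups. Each label gives the well of the library plate, and in iWAT females the level followed its column. The 4 libraries of column 7, replicates 1, 2, 4 and 5, had sums of 2182, 1547, 1283 and 1360 CPM. The 5 libraries of columns 8 to 10, replicates 3, 6, 7, 8 and 9, had 573, 226, 353, 440 and 341 CPM. The sets did not overlap, with means of 1593 ± 408 and 387 ± 129 CPM, a ratio of 4.12. The same held for each member, with ratios of 3.69 for Prl2c2, 4.36 for Prl2c3 and 7.09 for Prl2c5. Of 9193 genes tested, 0.914% were called between these sets (edgeR, FDR below 0.05, 84 genes). That fit used all 29 libraries, with each iWAT sex divided by column. The split was made after the members' values had been seen. What the columns stand for is not given by the labels. Among the listed genes, Vegfa, which encodes the main vascular growth factor, was lower in column 7 (log2 fold change -1.06, adjusted p = 0.043, same edgeR fit). The matrix gene Nid1, a chromosomal neighbour of the members, was higher (0.78, adjusted p = 0.0074, same edgeR fit). Both were named after their values were seen.

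In iWAT males the columns differed less. The 7 libraries of column 7 had a sum of 1470 ± 274 CPM (1232 to 2021), and the 3 of column 9 had 1188 ± 185 CPM (980 to 1337), ranges that overlapped. Columns 8 and 10 held no iWAT male library.

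The comparison of the sexes in iWAT depended on the column. Over all wells the mean sum was 1.501-fold higher in males, with ranges that overlapped. Within column 7 males had 1470 and females 1593 CPM, a ratio of 0.923, so the direction turned. Within column 9 the 3 male libraries had 1188 CPM and the only female library 341 CPM. In the table as a whole 285 genes, 3.22% of those tested, were called between the sexes in iWAT, 96 higher and 189 lower in males. Markers of several cell types moved with sex. Smooth muscle markers summed to 584 to 837 CPM in iWAT males and 836 to 3539 CPM in iWAT females, with 2 of 3 tested called lower in males. Of 6 fibroblast markers 2 were called lower in males, with sums of 6389 to 10370 and 7826 to 12200 CPM. Endothelial, pericyte and mesothelial sums overlapped between the sexes. Epithelial markers summed to 0 to 6.23 CPM in iWAT males and 29.4 to 1355 CPM in iWAT females, adipocyte markers to 114 to 217 and 24.7 to 53.9 CPM, and macrophage markers to 196 to 306 and 91.6 to 171 CPM. Within the females the epithelial sums of column 7 (85.1 to 142 CPM) lay inside the range of columns 8 to 10. The macrophage sums were 114 to 171 CPM (median 149) in column 7 and 91.6 to 117 CPM (median 116) in columns 8 to 10, and the pericyte sums 10.7 to 15.4 and 4.94 to 12.4 CPM. Their part in the proliferin levels was not tested.

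**Figure D2:**
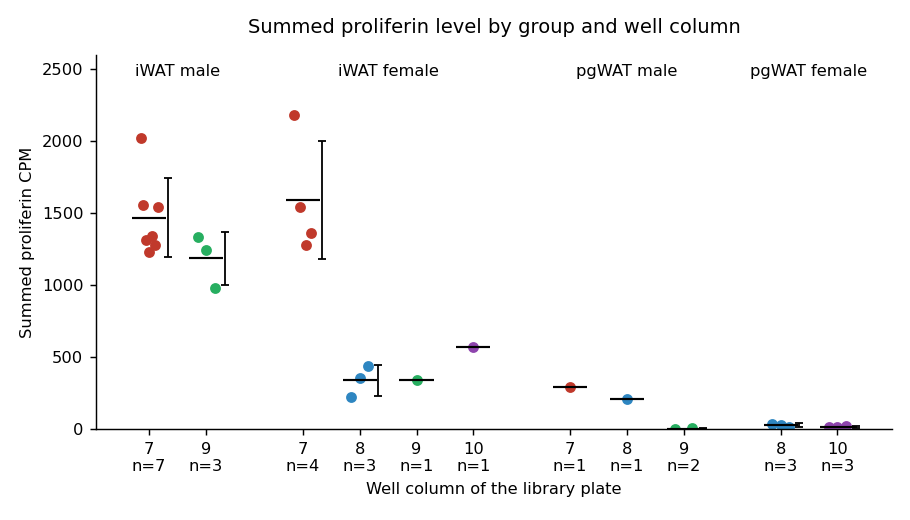
Summed proliferin CPM of each library (linear axis) by group and by well column, with a bar at the mean and an error bar of 1 SD where a column holds more than 1 library. Column 7 of the iWAT females (1283 to 2182 CPM) lies within or above the range of the iWAT males, and columns 8 to 10 (226 to 573 CPM) lie below it.

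Depot differences within a column kept their direction but varied in size. In column 7 the sum was 1515 CPM in iWAT (n = 11) and 294 CPM in the only pgWAT library, a ratio of 5.15. In column 8 it was 340 CPM in iWAT, all of it female, and 73.9 CPM in pgWAT, a ratio of 4.59. That pgWAT mean was set by male 1 at 208 CPM, and the 3 pgWAT females of column 8 had 29.2 CPM (16.3 to 40.1), a ratio of 11.6 to the females of iWAT. In column 9 it was 976 and 3.21 CPM, where both pgWAT libraries went against their sex label. In column 10 a single iWAT library had 573 CPM and 3 pgWAT libraries 16.4 CPM, of which 2 went against their sex label and the other did so in part. Depot, sex, column and experiment were spread unevenly over the plate and cannot be told apart in full.

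In pgWAT the libraries labelled male 1 and 3, set apart after the levels had been seen, held the 2 highest sums (251 ± 60.8 CPM). The other 8 libraries had 17.9 ± 13.2 CPM, among them pgWAT females 4 to 6, which also matched their labels. The ratio was 14.1, and the lack of overlap follows from this choice of libraries. The summed level of the macrophage markers was 733 to 905 CPM in male 1 and 3 and 145 to 410 CPM in the other 8. That of 14 proliferation genes was 1731 to 1787 CPM against 822 to 1084 CPM, and that of the adipocyte markers 146 to 175 CPM against 41.5 to 137 CPM. Other lists lay lower by median, with fibroblast sums of 11690 to 13840 against 11820 to 22690 CPM. Mesothelial sums were 59.0 to 79.1 against 62.1 to 190 CPM and epithelial sums 10.4 to 52.8 against 12.1 to 152 CPM. Smooth muscle, endothelial and pericyte sums lay within the range of the other 8. The part of any of these in the proliferin levels was not tested.

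The make-up of the proliferin counts also varied. Prl2c5 contributed 4.73% to 10.8% of the summed member counts in the 10 iWAT male libraries and 1.05% to 4.89% in the 9 iWAT female libraries. Within column 7, where the sums of the sexes were alike, Prl2c5 stood at 63.5 to 147 CPM in the 7 male libraries and at 46.4 to 75.6 CPM in the 4 female libraries, means of 104 ± 32.6 and 60.3 ± 12.1 CPM and a ratio of 1.72. The ranges overlapped. Pooled over column 7 the Prl2c5 share was 7.52% in males (95% exact binomial interval 6.84% to 8.24%) and 3.73% in females (3.23% to 4.28%), intervals that cover counting error only. In females of columns 8 to 10 the share was 2.03% (1.33% to 2.96%), on 26 counts.

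The share of Prl2c2 in iWAT ran from 21.6% in male 8 to 63.5% in male 10, both in column 7. It showed no such order by sex, with 24.7% to 60.8% in the females and medians of 36.5% in males and 39.9% in females. Because these transcripts share most of their sequence, the spread between libraries may not be spread in the cells.

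**Figure D3:**
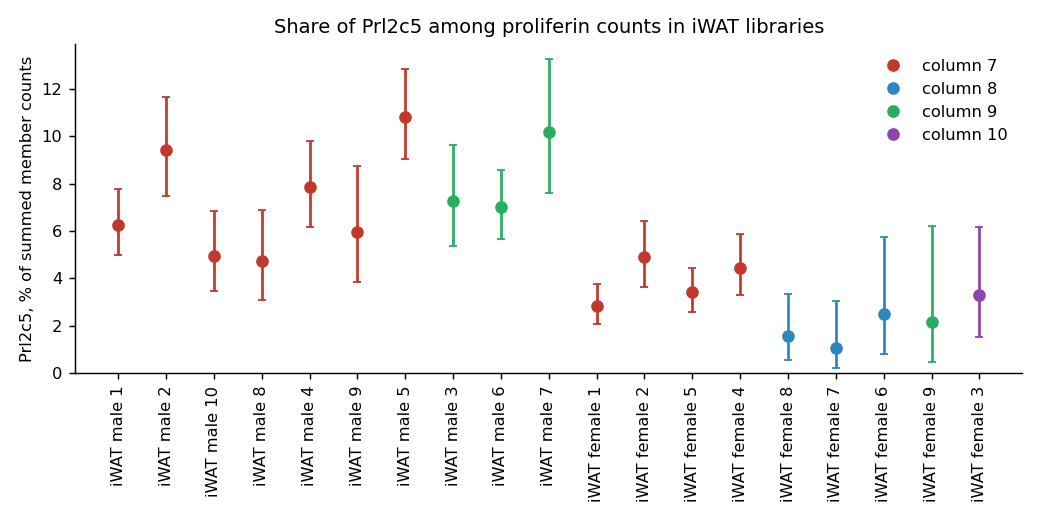
Prl2c5 as a percentage of the summed counts of the 3 members in each iWAT library, with 95% exact binomial intervals, coloured by well column. Male libraries lie between 4.73% and 10.8% and female libraries between 1.05% and 4.89%.

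No other gene of the prolactin family came near the level of the sum in iWAT. Of 24 further family members 23 were found in the table, none passed the filter on low counts and 8 had no count in any library, among them Prl2c1. The largest was the placental lactogen gene Prl3d2, with 46 counts in all, at most 9.43 CPM in an iWAT library and 0 in every pgWAT library. Prl3a1 had 10 counts, all of them in pgWAT, where Prl2c5 had 7. Of 15 markers of trophoblast, which holds the main source of proliferin in the animal, none passed the filter and 8 were at 0 throughout, including Hand1, Tpbpa and Gcm1.

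Genes listed for a link to proliferin or its hormone family were tested in the depot contrast (edgeR quasi-likelihood test with Benjamini-Hochberg adjustment, 29 libraries). For all genes tested the median log2 fold change, pgWAT over iWAT, was 0.01. The share called was 38.1%, to be set beside every count of depot calls in the main fit below. Of 4 receptors, among which only Igf2r was named above as binding proliferin, 3 were tested and 2 rose in pgWAT. The growth hormone receptor Ghr was 35.8 ± 15.8 CPM in iWAT and 105 ± 57.3 CPM in pgWAT (log2 fold change 1.55 ± 0.25 SE, adjusted p = 6.6e-06). M6pr, the smaller mannose 6-phosphate receptor, was 115 ± 25.5 and 157 ± 32.6 CPM (0.47 ± 0.12 SE, adjusted p = 0.0025), a call lost without the 4 libraries that went against their sex label (adjusted p = 0.0656). Igf2r, the receptor that binds proliferin, stood at 91.9 ± 24.9 and 109 ± 15.8 CPM and was not called (0.25 ± 0.13 SE, adjusted p = 0.11). The prolactin receptor Prlr had 14 counts in all libraries and was not tested. Among the 3 enzymes that attach the sugar tag, Gnptg rose (0.46 ± 0.15 SE, adjusted p = 0.014), which was lost with well column as a factor (adjusted p = 0.104), and Gnptab and Nagpa were not called.

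Regulators moved in both directions. Of 7 AP-1 subunits 5 were tested, with a median log2 fold change of 0.41. Jun fell from 47.8 ± 11.8 to 21.0 ± 9.36 CPM in pgWAT (-1.14 ± 0.18 SE, adjusted p = 4.3e-06) and Fosl1 from 58.6 ± 19.9 to 23.9 ± 15.5 CPM (-1.23 ± 0.25 SE, adjusted p = 0.00021). Fosl2 rose (0.97 ± 0.21 SE, adjusted p = 0.00041), a call lost without the 4 libraries named above (adjusted p = 0.212). Of 6 GATA factors only Gata2 was tested, and it rose from 3.72 ± 2.64 to 14.8 ± 7.46 CPM (1.97 ± 0.36 SE, adjusted p = 4.5e-05).

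Genes of the FGF response were of interest because all wells received basic FGF. Of 14 listed, 11 were tested, 2 rose and 5 fell in pgWAT, with a median of -0.51, where 38.1% of all genes were called. Etv4, a transcription factor induced by FGF signalling, fell from 67.9 ± 20.7 to 22.8 ± 8.20 CPM (-1.61 ± 0.19 SE, adjusted p = 4.4e-08). The feedback inhibitor Spry4 fell from 40.9 ± 14.9 to 16.9 ± 9.35 CPM (-1.21 ± 0.24 SE, adjusted p = 0.00014). Spry2, another of these inhibitors, rose (1.21 ± 0.24 SE, adjusted p = 0.00012), but without the 4 libraries its log2 fold change was 0.13 (adjusted p = 0.705). Fgf2, which encodes basic FGF itself, rose from 48.0 ± 18.3 to 111 ± 43.9 CPM (1.26 ± 0.19 SE, adjusted p = 3.3e-06). The main FGF receptor of these cells, Fgfr1, was not called.

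Secreted angiogenic factors, the functional neighbours of proliferin, were likewise mixed, 4 higher and 2 lower of 8 tested with a median of 0.56. The share called over all genes was 38.1%. Vegfd rose from 51.6 ± 14.0 to 216 ± 86.3 CPM (1.99 ± 0.16 SE, adjusted p = 4.5e-12). Pgf also rose (1.07 ± 0.35 SE, adjusted p = 0.014), a call lost without the 4 libraries (adjusted p = 0.422) and with well column as a factor (adjusted p = 0.227). Angpt2, which destabilizes vessels, fell from 76.2 ± 34.0 to 34.9 ± 16.99 CPM (-1.04 ± 0.22 SE, adjusted p = 0.00028) and Angptl4 fell from 362 ± 87.8 to 183 ± 96.6 CPM (-0.95 ± 0.18 SE, adjusted p = 0.0001). Angpt2 was also the factor called between the sexes in iWAT, higher in males (log2 fold change 1.02, adjusted p = 0.0079).

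**Figure D4:**
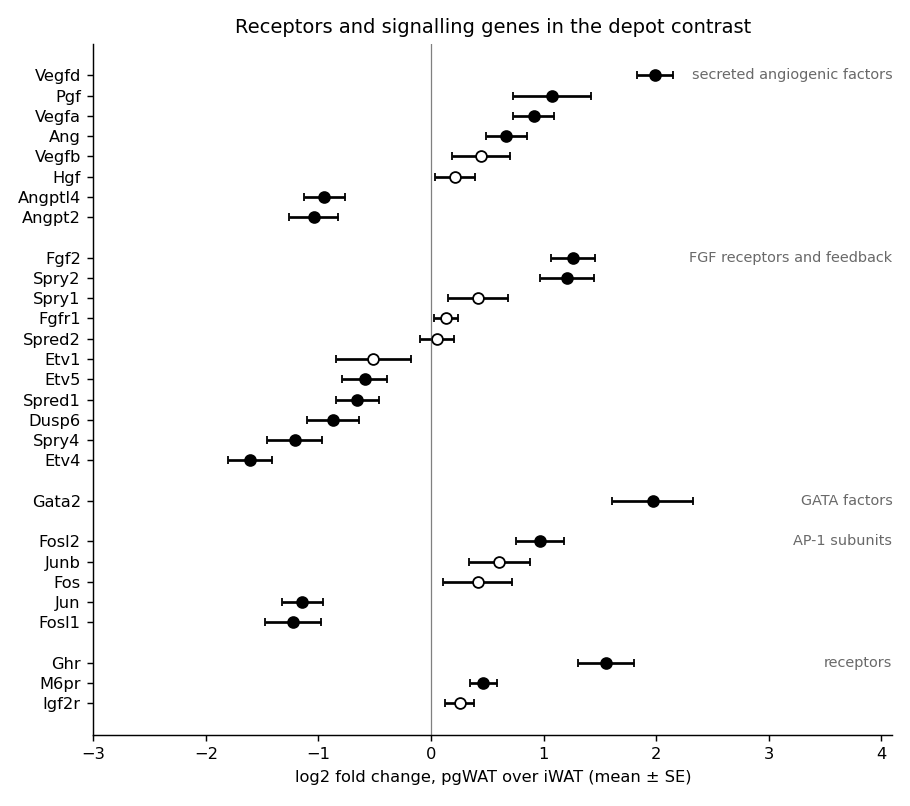
Log2 fold change, pgWAT over iWAT, with SE for tested genes of 5 lists (receptors, AP-1 subunits, GATA factors, FGF receptors and feedback, secreted angiogenic factors), filled where the edgeR FDR was below 0.05. Vegfd (1.99) and Gata2 (1.97) lie farthest to the right and Etv4 (-1.61) farthest to the left.

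Other differences ran beside the depot contrast, in which 38.1% of all genes were called. All 14 proliferation genes were tested, 12 were lower in pgWAT and none higher (median -0.83), with Mcm5 (-1.22), Mcm4 (-1.08), Ccnb1 (-1.02) and Mcm7 (-1.01) the most lowered. The fibroblast markers, which define the bulk of these cells, summed to 6389 to 12200 CPM in iWAT and 11690 to 22690 CPM in pgWAT, with 5 of 6 called higher. Smooth muscle markers summed to 584 to 3539 and 1337 to 3130 CPM (3 of 3 tested higher), and mesothelial markers to 1.96 to 98.7 and 59.0 to 190 CPM (3 of 4 tested higher, 1 lower). Macrophage markers summed to 91.6 to 306 and 145 to 905 CPM (2 of 4 higher), endothelial markers to 28.6 to 106 and 41.5 to 109 CPM (1 of 3 higher), pericyte markers to 4.94 to 32.3 and 0 to 22.5 CPM (none tested). Epithelial markers summed to 0 to 1355 and 10.4 to 152 CPM and adipocyte markers to 24.7 to 217 and 41.5 to 175 CPM. Of these lists Krt8 (adjusted p = 0.13), Krt18 (adjusted p = 0.30) and Fabp4 (adjusted p = 0.25) were tested, and none was called by edgeR in the main fit. Epithelial calls depended on the setting. With well column as a factor 2 of 2 tested were higher in pgWAT, with DESeq2 1 of 2 and with no filter 1 of 3. None was called with RLE factors, total counts or limma-voom. Without the 4 libraries against their sex label, 2365 of all 9539 genes tested were called, against 3371 of 8853 with them. In that setting 4 of 6 fibroblast markers were called higher and 1 lower. No endothelial marker of 4 tested was called (Kdr, adjusted p = 0.124), and Dcn was no longer called (log2 fold change 0.14, adjusted p = 0.585). Without pgWAT female 1 as well, Col1a1 (adjusted p = 0.0502), Col3a1 (adjusted p = 0.266) and Acta2 (adjusted p = 0.0501) also lost their calls. Without the 4 libraries alone, smooth muscle markers had 3 of 3 higher, macrophage markers had 2 of 5 higher, mesothelial markers 5 of 6 higher and 1 lower, pericyte markers 1 of 1 lower, and proliferation genes 11 of 14 lower. Without them 1 of 3 receptors was higher, 2 of 3 tagging enzymes were higher, 2 of 5 AP-1 subunits were lower and none higher, and 2 of 2 GATA factors were higher. No epithelial or adipocyte marker was called, with 2 tested of each, and of 4 chromosomal neighbours 1 was higher and 1 lower. Of the FGF genes 1 of 11 was higher and 3 were lower, and of the angiogenic factors 3 of 9 were higher and 2 lower. The part of any of these in the proliferin difference was not tested.

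The genes next to the cluster showed small depot differences. Of the 3 protein-coding neighbours on either side, 4 of 6 were tested. Lyst, a regulator of lysosome size, was higher in pgWAT (0.85 ± 0.21 SE, adjusted p = 0.0017), Lgals8, which encodes the lectin galectin-8, was lower (-0.30 ± 0.10 SE, adjusted p = 0.017), a call lost with well column as a factor (adjusted p = 0.116), and Gpr137b and Nid1 were not called.

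The order of the 29 libraries by summed proliferin was compared with that of 8812 other genes by Spearman correlation of log2 CPM. These are descriptions, with no test, over points that share depot, well column and depth. The highest values were those of Raet1e, a ligand of the NKG2D receptor (rho = 0.92), the annexin Anxa5 (0.87), the podosome adaptor Sh3pxd2b (0.87), the matrix protein gene Dpt (0.87), the RNA polymerase subunit Polr2e (0.87) and the myo-inositol transporter Slc5a3 (0.86). With the mean of each group subtracted, the highest were Vps18 (0.74), S100a16 (0.74), the netrin receptor gene Unc5b (0.72), Trabd2b (0.70), Mical2 (0.68) and Rapgef3 (0.68), so the lists shared no gene. Raet1e itself fell to 0.38 with the group means removed.

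**Figure D5:**
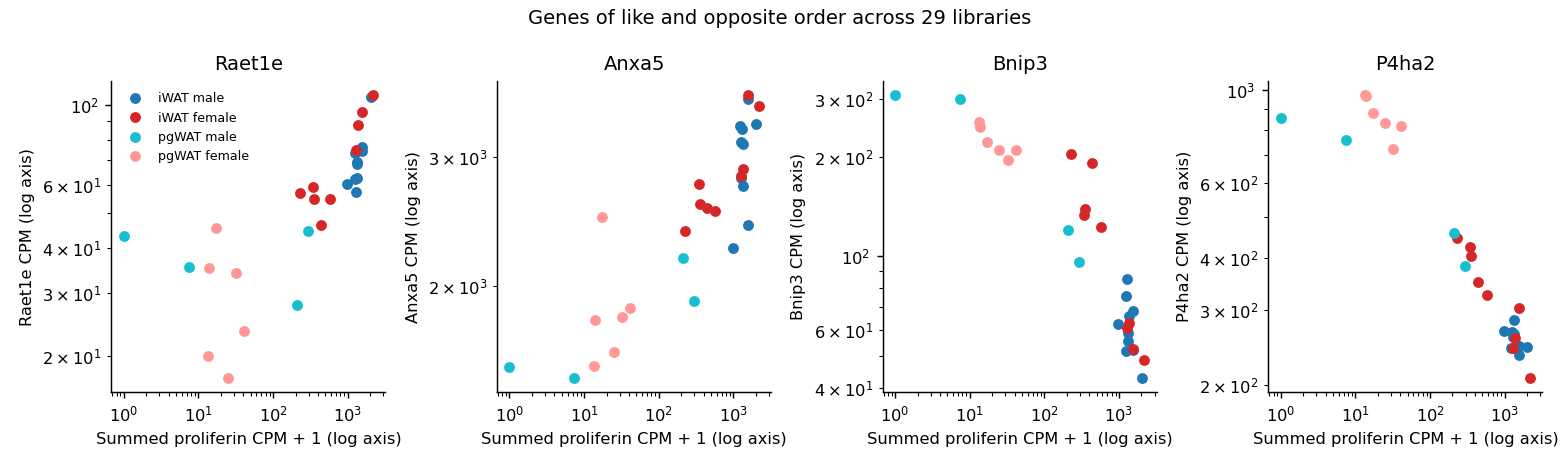
CPM of Raet1e, Anxa5, Bnip3 and P4ha2 (log axes) against summed proliferin CPM plus 1 in the 29 libraries, coloured by group. Raet1e and Anxa5 rise with proliferin (rho 0.92 and 0.87), and Bnip3 and P4ha2 fall with it (rho -0.92 and -0.91).

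At the other end of that order stood 3 genes that were picked out after their values had been seen, outside the rule for named genes. Bnip3, a mitochondrial protein induced by low oxygen, had rho = -0.92, P4ha2, a subunit of collagen prolyl 4-hydroxylase, had -0.91 and Pfkl, the liver-type phosphofructokinase of glycolysis, had -0.90. With the group means subtracted the values, pooled over all libraries, were -0.88 for Bnip3, -0.92 for P4ha2 and -0.73 for Pfkl. No value was computed for single groups, so these do not show the order inside each group. P4ha2 averaged 254 CPM in column 7 of the iWAT females and 256 CPM in iWAT males, 390 CPM in columns 8 to 10 of the iWAT females, 420 CPM in pgWAT males 1 and 3 and 850 CPM in the other 8 pgWAT libraries. The summed proliferin level of the same sets was 1593, 1385, 387, 251 and 17.9 CPM, the reverse order. Bnip3 averaged 56.1, 61.8, 158, 108 and 243 CPM in these sets, which was the same order except that columns 8 to 10 of the iWAT females lay above pgWAT males 1 and 3. The genes were picked by their correlation with proliferin, and the iWAT female and pgWAT sets were split after its levels had been seen. The order of the set means follows in part from these choices. No cause of this relation was tested.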

How the data were processed

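RNA of 29 in vitro SVF cultures was sequenced with Smart-seq3. The authors trimmed reads with NGmerge, quantified them with Salmon 1.9.0 on a Gencode transcriptome of GRCm39 and summed transcripts to genes, and they deposited estimated counts per gene, with reads with and without molecular identifiers together, after removing libraries with few detected genes. Salmon divides reads that fit several transcripts, so near-identical members receive fractions. Here the values were rounded, which left the sums of members almost unchanged, and 52029 of 56953 rows (91.4%) were matched to symbols. Unmatched rows held 0.439% of counts. Sequences and gene models came from GRCm38 references, a different build from that of the counts, and were used for sequence and order only.

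CPM used TMM factors. Genes outside the members were tested in R 4.3.3 with edgeR 4.0.16 (two-sided quasi-likelihood test, filterByExpr, 1 mean per group over 29 libraries, both sexes weighted equally for depot), and called at an FDR below 0.05. DESeq2 1.42.0 and limma 3.58.1 (voom) were alternatives, as were RLE factors, total counts, no filter, well column as a factor, omission of libraries against their sex label and omission of each library in turn. Libraries were numbered within groups in order of deposition. Scripts were tested on simulated data. Named genes were the members, every receptor and up to 4 called genes of each list with the largest change per contrast. Also named were the 6 genes of highest Spearman correlation (prior count of 2) over all libraries, before and after subtraction of group means. The members and lists were chosen with earlier results of these data known. The split by well column and the setting apart of pgWAT male 1 and 3 were added after seeing the data.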

Additional observations from a re-analysis of the deposited data

How the results depend on the processing

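The summed proliferin level was lower in pgWAT under all 41 alternatives (log2 ratio, main -4.17). It lay between -4.90 and -4.02 when each library was left out in turn, and within well column 9, where both pgWAT libraries had 6 counts or fewer and went against their sex label, it was -8.25. Male over female in iWAT (0.59 on the log2 scale) reversed within well column 7 (-0.12) and was 1.80 within column 9, where 1 female library remained, with 0.46 to 0.86 over the omission of single libraries. Genes called between depots numbered 3371, with 3019 to 3380 over the omission of single libraries, 2709 with well column as a factor and 2365 without the libraries against their sex label. Genes called between the sexes in iWAT numbered 285, with 205 to 327 over the omission of single libraries. They rose to 510 with no filter on low counts, where more genes were tested, 496 with well column as a factor, 530 without the libraries against their sex label and 556 without the further library partly against it (both sets chosen from sex-linked transcripts, the second after seeing the data). The cause of these rises was not tested. Of the named genes, none reversed under any alternative, and 23 of 1332 refits in the depot contrast and 18 of 370 in the iWAT sex contrast lost the call. All 18 were refits of the proliferation gene Mcm4, called higher in males in the main fit (log2 fold change 0.49, edgeR adjusted p = 0.048). Fractions of a count from shared reads and pgWAT levels of a few counts limit the values of single members. Prl2c5 in column 9 and under medians had no pgWAT value above 0 and so no ratio. No paired analysis was possible because the labels carry no replicate numbers and the numbers used were given in order of deposition.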
